A study of Mus musculus with 25 samples.

Results

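The integrated stress response and the unfolded protein response (UPR) were followed through 10 regulator genes, Atf4, Atf5, Ddit3, Chac1, Asns, Trib3, Ppp1r15a, Xbp1, Ern1 and Sesn2, taken by symbol from the 24411 genes counted in each of 25 RNA-seq libraries. All 10 genes were found and all had counts. Bone marrow-derived macrophages (BMDMs) came from C57BL/6 mice and were differentiated with 25 ng/ml M-CSF for 4 days. They were left as controls, labelled as cultured for 4 h, given both IFN-γ, at 100 U/ml, and LPS, at 100 ng/ml, for a labelled 1, 4, 12 or 24 h, or given IL-4 or IL-13 (each at 10 ng/ml) for 12 h, with 3 libraries per group. The study describes the cells given both stimuli as primed with IFN-γ, and neither the labels nor its methods give a time of IFN-γ ahead of LPS, so the hours here are those of the labels. RAW264.7 cells, a macrophage line established from a tumour that the Abelson virus induced in a Balb/c mouse, were cultured for 4 h without treatment or with LPS alone (100 ng/ml), with 2 libraries per group. The line was grown in RPMI and the BMDMs in DMEM, so the cell type, the strain and the medium cannot be told apart. A single control time served every BMDM comparison, so treatment and time in culture cannot be told apart at 1, 12 and 24 h. The study's methods describe the BMDM libraries of a group as biological replicates made from independent RNA samples, and do not say whether these came from separate mice or cultures, so p-values measure the spread between these libraries.

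In the integrated stress response, the kinases PERK, PKR, GCN2 and HRI phosphorylate the translation factor eIF2α, which slows protein synthesis in general while the mRNAs of ATF4, ATF5 and CHOP are translated more. ATF4 then switches on genes of amino acid supply and of its own feedback, among them Asns, Chac1, Trib3 and Sesn2, and Ppp1r15a encodes GADD34, which guides a phosphatase back to eIF2α. In the UPR, the endoplasmic reticulum (ER) sensor IRE1α, encoded by Ern1, splices the Xbp1 mRNA, and the spliced form encodes a factor for chaperone and ER-associated degradation (ERAD) genes. Gene counts do not separate the spliced from the unspliced Xbp1 mRNA and do not show translation or phosphorylation.

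Among the promoters of these genes, from 250 bases before to 50 after the start in RefSeq on GRCm38.p6, short matches to the binding elements of the pathway were searched on both strands. All 10 genes matched the RefSeq table, with 11 promoters, since Atf5 had 2. The C/EBP-ATF response element, written TGATGNAAN, was found in Trib3, Chac1 and Asns and in 3.95% of all 32851 promoters. The cAMP response element, TGACGTCA, was found in Ppp1r15a and in 1.79% of promoters. The UPR element TGACGTGG, which shares its first letters with the cAMP element, was in 0.676% of promoters and in none of the members. The ER stress element, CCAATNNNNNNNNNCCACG, was in 0.119% of promoters and again in no member. A relation between the matches and the fold changes described below was not tested. All 4 matching windows of the members are printed. They are given 5′ to 3′ along the gene with the matched letters in capitals. The windows are chr7:45526269-45526340 on the minus strand for Ppp1r15a, chr2:152344039-152344107 on the minus strand for Trib3, chr2:119350992-119351101 on the plus strand for Chac1 and chr6:7693210-7693292 on the minus strand for Asns.
Ppp1r15a: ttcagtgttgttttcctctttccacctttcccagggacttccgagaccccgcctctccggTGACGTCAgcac
Trib3: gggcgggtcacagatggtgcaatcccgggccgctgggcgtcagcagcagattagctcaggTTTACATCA
Chac1: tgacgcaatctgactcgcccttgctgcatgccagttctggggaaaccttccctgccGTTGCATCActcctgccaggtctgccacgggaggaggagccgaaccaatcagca
Asns: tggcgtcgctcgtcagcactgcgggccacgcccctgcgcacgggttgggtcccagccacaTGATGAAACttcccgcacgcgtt
The match began 12 bases before the start in Ppp1r15a, 23 before it in Asns, 194 before it in Chac1 and 13 after it in Trib3. In Trib3 and Chac1 the element lay on the strand opposite to the gene. A match of letters is a description and not evidence of binding, and the libraries hold no binding data.

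Levels are given as CPM, sense-strand counts scaled to the library's total on genes without Rn45s, the ribosomal RNA precursor, which took 20.1 to 39.8% of the counts. The libraries held 1502618 to 2532496 remaining counts, so 1 count equals 0.395 to 0.666 CPM and genes of a few CPM rest on few counts. Fold changes come from edgeR's quasi-likelihood test after trimmed mean of M values (TMM) scaling, with Benjamini-Hochberg adjustment over all genes tested in the comparison. A gene passed at an adjusted p of at most 0.01. TMM raised the IFN-γ and LPS groups relative to the plain CPM. At 4 h of IFN-γ and LPS, the median gene changed by −0.08 on the log2 scale with TMM and by −0.60 without it, and the genes past the test were 2486 higher and 2448 lower with TMM against 1489 higher and 4617 lower without. For that reason the fold changes of IFN-γ and LPS against control below are larger than the ratios of the printed CPM values. TMM-scaled CPM were 1.36 times the printed ones at 4 h, 1.15 to 1.17 times at 12 h and 1.06 to 1.07 times at 24 h. The fold changes from 4 h to 12 h and from 12 h to 24 h are therefore smaller than those ratios. Members whose call rested on the scaling are named, except in a later fit that was made with TMM only. Macrophage markers summed to 12668 to 29245 CPM in the BMDM libraries and to 7696 to 9679 CPM in RAW264.7, where Mertk was at 0. Fibroblast collagens reached 19.3 to 94.4 CPM in BMDMs and were at 0 in RAW264.7, while the erythroid markers Hbb-b1 and Hba-a1 were at 0 in every library. Of the T cell markers, Cd3e, Cd3g and Cd8a were at 0 throughout and Cd4 was detected in every BMDM group, with a summed level of 1.97 to 14.1 CPM. Neutrophil markers summed to 9.53 to 18.0 CPM in control BMDMs, 16.1 to 35.2 CPM with IFN-γ and LPS, 11.0 to 21.1 CPM with the cytokines and at most 1.67 CPM in RAW264.7. The part of other cells in the results was not tested, and bulk libraries cannot tell a change in the number of expressing cells from a change in RNA per cell.

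**Figure D1:**
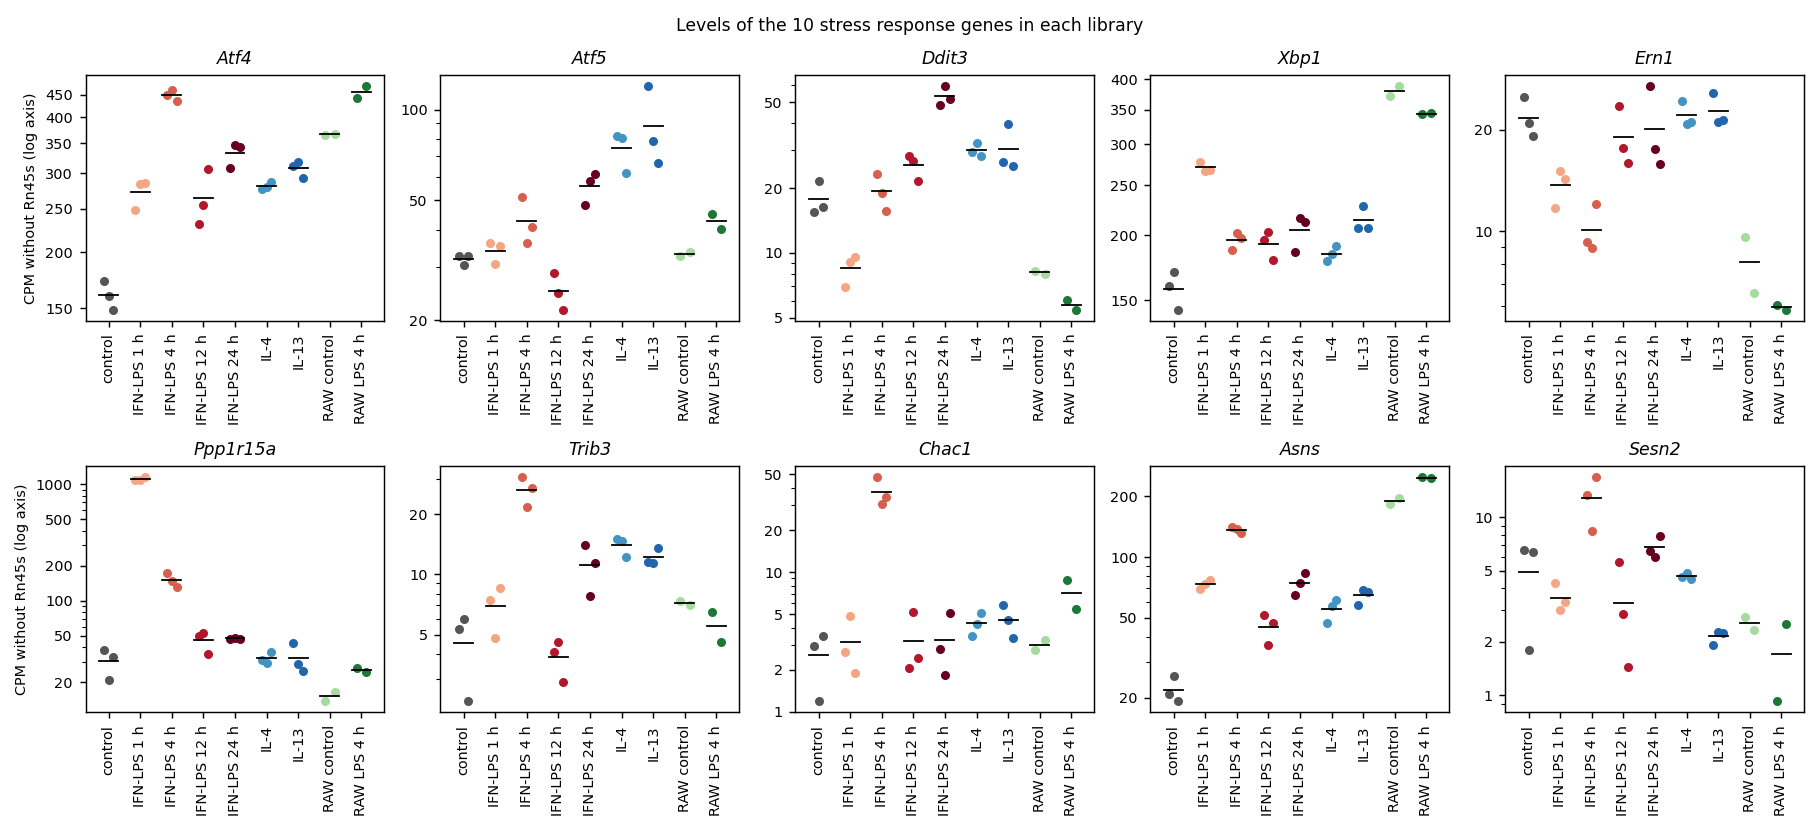
CPM without Rn45s (log axis) of each of the 10 genes in every library, with 1 point per library, 1 panel per gene and the conditions along the horizontal axis. Ppp1r15a stands at 1084 to 1157 CPM at 1 h of IFN-γ and LPS, and Chac1, Trib3 and Sesn2 are at their highest at 4 h.

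In untreated BMDMs the transcription factor genes Atf4 and Xbp1 were the most abundant members. Per kilobase of exon, Atf4 had 68.1 CPM and Xbp1 48.6 CPM, against 16.0 for Atf5, 10.4 for Ddit3, 10.4 for Ppp1r15a and 8.0 for Asns. The ER sensor Ern1 had 2.65 CPM per kilobase, and Trib3, Chac1 and Sesn2 had 2.14, 1.56 and 1.41. Between the highest and the lowest condition mean, the CPM differed 73.7-fold for Ppp1r15a, 14.7-fold for Chac1 and 11.3-fold for Asns. The same range was 2.84-fold for Atf4 and 2.41-fold for Xbp1, the narrowest of the 10.

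Within 1 h of IFN-γ and LPS, 4 of the 10 genes rose and 1 fell, where 14.7% of all genes tested passed as higher and 11.3% as lower. The median log2 change of the members was 0.62 against −0.03 over all genes. The phosphatase regulator Ppp1r15a moved most. It read 38.1, 20.9 and 32.6 CPM in the control libraries and 1084, 1092 and 1157 CPM at 1 h, with no overlap between the groups. This was a 41.4-fold rise, or 5.37 ± 0.13 (SE, n = 3 against 3) on the log2 scale (edgeR's adjusted p = 2.33e-34). Per kilobase, its level of 378 CPM at 1 h exceeded the 116 CPM of Atf4.

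Asns, which makes asparagine, read 20.8, 25.6 and 19.2 CPM in control and 69.6, 73.1 and 77.1 CPM at 1 h. All treated libraries were above all controls, and the rise was 1.93 ± 0.16 (edgeR's adjusted p = 3.33e-14). Xbp1 read 160, 170 and 144 CPM in control and 277, 266 and 268 CPM at 1 h, its highest level in BMDMs, with a rise of 0.97 ± 0.10 (edgeR's adjusted p = 1.55e-11). Atf4, the central factor of the response, went from 173, 160 and 149 CPM to 249, 285 and 285 CPM, a rise of 0.95 ± 0.11 (edgeR's adjusted p = 2.50e-10). Neither of these groups overlapped its control.

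Ddit3, which encodes the pro-apoptotic factor CHOP, was the member that fell. Its control libraries read 15.5, 21.5 and 16.3 CPM and its 1 h libraries 6.91, 9.06 and 9.52 CPM. The groups did not overlap, and the change was −0.87 ± 0.26 (edgeR's adjusted p = 0.00620). This call was weak, since it was lost in DESeq2, with unstranded counts, without the filter on low counts, and on leaving out control library 2 or 3 or any of the 1 h libraries, with changes of −0.70 to −0.95 in those that left out a library. Ddit3 also overlaps Mars and Gm4189 on the other strand, where 102 antisense counts stood against 1112 sense counts over all libraries. Trib3 (0.82), Chac1 (0.42), Sesn2 (−0.28), Atf5 (0.29) and Ern1 (−0.48) did not pass at 1 h.

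At 4 h, 8 of the 10 genes had risen and none had fallen, where 26% of all genes tested were higher. The median log2 change was 1.94 in the members and −0.08 over all genes. Without TMM 7 rose and 1 fell, since Atf5 no longer passed (0.41) and Ern1 did (−1.10). Chac1, a glutathione-degrading enzyme, read 2.97, 1.19 and 3.49 CPM in control, 2.66, 4.83 and 1.90 CPM at 1 h and 47.9, 30.6 and 34.3 CPM at 4 h. Only at 4 h did its BMDM libraries stand clear of all the others, and the rise against control was 20.4-fold, or 4.35 ± 0.33 (edgeR's adjusted p = 2.54e-16).

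Asns reached 142, 138 and 131 CPM, a rise of 3.17 ± 0.15 over control (edgeR's adjusted p = 7.97e-24). Trib3, a pseudokinase that restrains ATF4 and CHOP, read 5.35, 5.96 and 2.33 CPM in control and 30.6, 21.7 and 27.1 CPM at 4 h, a rise of 3.04 ± 0.29 (edgeR's adjusted p = 1.09e-12). Sesn2, an inhibitor of mTORC1 that senses leucine, read 6.54, 1.79 and 6.4 CPM in control and 13.3, 8.35 and 16.9 CPM at 4 h. Its groups did not overlap and the rise was 1.88 ± 0.37 (edgeR's adjusted p = 1.89e-05), although Gm12981 lies over it on the same strand and reads of the overlap cannot be told apart.

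Atf4 stood at 449, 461 and 436 CPM at 4 h, the highest of its BMDM groups, and its rise over control was 2.01 ± 0.11 (edgeR's adjusted p = 5.64e-22). Ppp1r15a had come down to 173, 147 and 131 CPM but was still 2.82 ± 0.15 above control (edgeR's adjusted p = 2.83e-22). Xbp1, at 188, 202 and 198 CPM, was higher by 0.84 ± 0.10 (edgeR's adjusted p = 6.47e-10). Atf5, a relative of ATF4, read 51.2, 36.2 and 40.9 CPM at 4 h against 32.7, 30.4 and 32.6 CPM in control and was higher by 0.94 ± 0.17 (edgeR's adjusted p = 3.72e-06). These 4 groups lay above their controls in every library.

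The other 2 members did not pass at 4 h. Ddit3 read 23.3, 18.9 and 15.6 CPM, overlapping its control, with a change of 0.64 ± 0.22 (edgeR's adjusted p = 0.0118) that passed in some alternatives, among them without control library 2. Ern1 read 25.0, 20.9 and 19.2 CPM in control and 9.32, 8.91 and 12.0 CPM at 4 h. The CPM groups did not overlap, but on the TMM scale the change of −0.57 ± 0.26 did not pass (edgeR's adjusted p = 0.0508).

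Between 1 h and 4 h directly, 7 members rose where 19.8% of all genes were higher, and Ppp1r15a fell where 19.1% were lower. Chac1 was higher by 3.93 ± 0.31 and Trib3 by 2.22 ± 0.26, while Ppp1r15a changed by −2.55 ± 0.11 (edgeR's adjusted p = 2.76e-15, 6.38e-10 and 5.47e-25). Sesn2, Ddit3, Asns, Atf4 and Atf5 rose by 2.16, 1.5, 1.24, 1.06 and 0.65. Xbp1 (−0.13) and Ern1 (−0.10) did not pass. Without TMM, Xbp1 was also lower (−0.46) and Atf5 no longer passed (0.31), a call that was also lost without the first 4 h library (0.53).

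**Figure D2:**
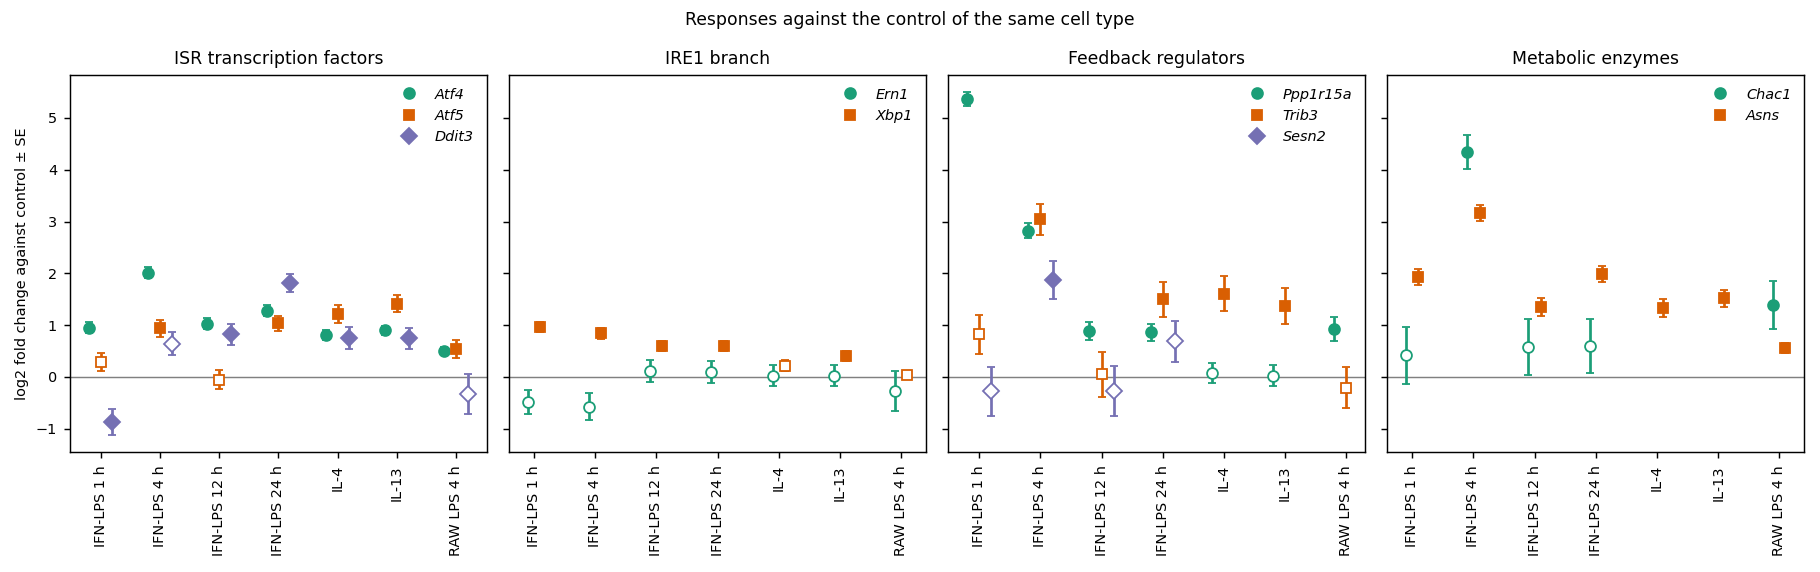
Log2 fold change ± SE of each gene against the control of the same cell type, over the times of IFN-γ and LPS, after 12 h of IL-4 or IL-13, and with LPS in RAW264.7; filled points passed the test and open points did not. Ppp1r15a peaks at 1 h (5.37), Chac1 at 4 h (4.35) and Ddit3 at 24 h (1.81).

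From 4 h to 12 h, 7 of the 10 genes fell and none rose, where 19.2% of all genes were lower. Chac1 returned to 2.04, 5.14 and 2.41 CPM, a fall of 3.77 ± 0.31 on the log2 scale (edgeR's adjusted p = 1.68e-14), and overlapped its control again. Trib3 came to 4.09, 4.57 and 2.89 CPM and Sesn2 to 5.62, 2.86 and 1.44 CPM, falls of 2.98 ± 0.30 and 2.15 ± 0.39 (edgeR's adjusted p = 7.53e-12 and 9.04e-06). Ppp1r15a, Asns, Atf5 and Atf4 fell by 1.93, 1.81, 0.99 and 0.98. Ddit3 (0.19), Xbp1 (−0.25) and Ern1 (0.69) did not pass. Without TMM the same comparison gave 7 lower and 1 higher, the latter Ern1 (0.91).

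Against control, 5 of the 10 genes were still higher at 12 h, where 23.9% of all genes were. The median log2 change of the members was 0.58. Asns read 51.6, 36.5 and 47.2 CPM and was higher by 1.36 ± 0.17 (edgeR's adjusted p = 3.02e-09). Atf4 read 232, 255 and 307 CPM, a rise of 1.03 ± 0.11 (edgeR's adjusted p = 1.07e-11). Ppp1r15a read 50.1, 53.1 and 35.1 CPM and was higher by 0.89 ± 0.17 (edgeR's adjusted p = 1.12e-05), although its plain CPM overlapped the control. Ddit3, at 28.1, 26.8 and 21.7 CPM, was higher by 0.83 ± 0.20, and Xbp1, at 196, 203 and 180 CPM, by 0.59 ± 0.10 (edgeR's adjusted p = 0.000539 and 1.61e-06). Both of the last calls were lost without TMM, at 0.52 and 0.29, leaving 3. Chac1 (0.58), Ern1 (0.12), Trib3 (0.06), Atf5 (−0.05) and Sesn2 (−0.27) did not pass at 12 h.

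At 24 h, 7 of the 10 genes were above control, where again 23.9% of all genes were, and the median of the members was 0.95. Ddit3 had its highest level of all conditions, 48.8, 59.8 and 52.1 CPM, which overlapped no other group, and its rise was 1.81 ± 0.18 (edgeR's adjusted p = 1.77e-12). Asns read 64.7, 74.5 and 82.9 CPM, higher by 1.98 ± 0.16 (edgeR's adjusted p = 2.53e-15). Trib3 read 14, 7.82 and 11.5 CPM, higher by 1.5 ± 0.33 (edgeR's adjusted p = 0.000166).

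Atf4 at 309, 348 and 344 CPM and Atf5 at 48.4, 57.9 and 61.2 CPM were higher by 1.28 ± 0.11 and 1.03 ± 0.15 (edgeR's adjusted p = 7.84e-15 and 1.01e-07). Ppp1r15a and Xbp1 were higher by 0.86 ± 0.16 and 0.60 ± 0.10 (edgeR's adjusted p = 1.28e-05 and 1.06e-06). Chac1 (0.59), Sesn2 (0.69) and Ern1 (0.10) overlapped their controls and did not pass. Unlike at 4 h, the 24 h libraries had Ddit3 high with Chac1 at 2.79, 1.84 and 5.13 CPM.

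From 12 h to 24 h, 4 members rose again, where 5.31% of all genes were higher. Trib3 rose by 1.44 ± 0.34, Atf5 by 1.08 ± 0.16, Ddit3 by 0.99 ± 0.16 and Asns by 0.63 ± 0.14 (edgeR's adjusted p = 0.00112, 3.71e-07, 4.78e-06 and 0.000402). The call for Trib3 was lost without the first 24 h library (1.26) and that for Asns without the second 12 h library (0.49). Sesn2 (0.96), Atf4 (0.25), Chac1 (0.02), Xbp1 (0.01), Ern1 (−0.02) and Ppp1r15a (−0.03) did not pass, although Atf4 did without the third 12 h library (0.39) and without TMM (0.33). These values bear on a split between libraries that follows.

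The antisense share of the Rn45s counts split the BMDMs into 2 sets. It was 0.0386 to 0.122% for the 12 control, 1 h, 4 h and 12 h samples. It was 0.00603 to 0.0214% for the other 9, made up of the 24 h group and of both cytokine groups. The ratio of sense to antisense counts over all genes did not split the libraries in the same way. That ratio was 121 in the third 24 h library, below the 124 to 126 of the controls. The labels name no batch. By mean, Atf5 was highest in those same 3 groups, at 48.4 to 61.2, 61.5 to 81.7 and 66.4 to 120 CPM, against 21.7 to 51.2 CPM in the other BMDM libraries. Ddit3 ran from 25.3 to 59.8 CPM in the 9 libraries and from 6.91 to 28.1 CPM in the 12. Trib3 ran from 7.82 to 15.1 CPM in the 9 libraries and, outside 4 h, from 2.33 to 8.56 CPM in the others. The condition and the library split cannot be told apart in the comparisons of 24 h, IL-4 or IL-13 with the other BMDM groups. This holds for these genes, for the other members and for the pathway lists below.

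**Figure D3:**
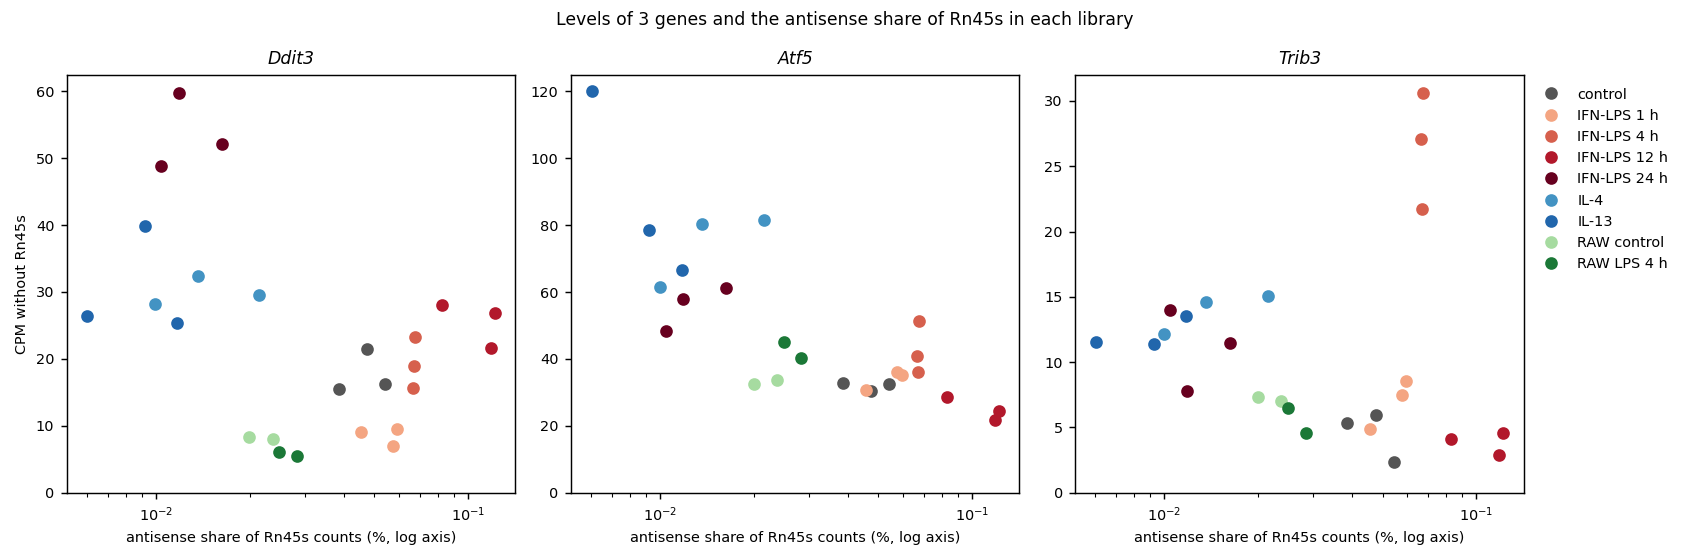
CPM without Rn45s of Ddit3, Atf5 and Trib3 against the antisense share of Rn45s counts (%, log axis), with 1 point per library and colours for the conditions. The 24 h and cytokine libraries (9) lie at 0.00603 to 0.0214%, left of the 12 other BMDM libraries at 0.0386 to 0.122%.

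Within the 9 libraries of low share, IL-4 and IL-13 at 12 h were compared with IFN-γ and LPS at 24 h. This fit was chosen after seeing the data, and treatment and time cannot be told apart in it. Ddit3 was lower with IL-4 and with IL-13, with differences of −1.06 ± 0.17 and −1.06 ± 0.16 (edgeR's adjusted p = 1.21e-07 and 8.48e-08). Atf5 differed by 0.19 and 0.39 and Trib3 by 0.11 and −0.12, and none of these 4 passed (edgeR's adjusted p = 0.347, 0.0375, 0.754 and 0.738). Asns differed by −0.66 and −0.46 and Atf4 by −0.47 and −0.37, and these did pass (edgeR's adjusted p = 5.51e-05, 0.00322, 2.51e-05 and 0.000686). Ppp1r15a passed as well, at −0.78 and −0.83 (edgeR's adjusted p = 6.47e-05 and 2.30e-05). Sesn2 differed by −0.77 with IL-4 and by −1.89 with IL-13, the largest difference here, and Xbp1 by −0.38 and −0.19 (edgeR's adjusted p = 0.0831 and 0.000247 for Sesn2, 0.00148 and 0.104 for Xbp1). The Sesn2 difference with IL-13 rests on few counts, 3, 4 and 4 in the IL-13 libraries and 14, 13 and 20 at 24 h. Ern1 differed by −0.07 in both and did not pass, and Chac1 was not tested. This fit was made with TMM only, so whether its calls rested on the scaling was not tested. Plain CPM at 24 h overlapped those with IL-13 for Asns (64.7 to 82.9 and 57.8 to 68.4) and Atf4 (309 to 348 and 293 to 319). For Xbp1 they overlapped those with IL-4 (186 to 217 and 178 to 191). The other groups past the test did not overlap.

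IL-4 for 12 h raised 5 of the 8 members tested and lowered none, where 4.38% of all genes were higher. Chac1 and Sesn2 had too few counts to be tested, at 3.48 to 5.12 and 4.48 to 4.88 CPM. The median log2 change of the 8 was 0.78, against −0.01 over all genes. Trib3 read 15.1, 14.6 and 12.2 CPM, all above its control, with a rise of 1.61 ± 0.33 (edgeR's adjusted p = 0.000369). Asns read 46.9, 57.3 and 61.5 CPM and Atf5 81.7, 80.5 and 61.5 CPM, rises of 1.33 ± 0.17 and 1.22 ± 0.17 (edgeR's adjusted p = 3.34e-08 and 5.91e-07). Atf4 read 277, 279 and 287 CPM and was higher by 0.80 ± 0.09 (edgeR's adjusted p = 1.71e-09). Ddit3 read 29.5, 32.3 and 28.2 CPM and was higher by 0.75 ± 0.21 (edgeR's adjusted p = 0.00961). That last call was lost in DESeq2, with at least 10 counts asked in every sample, and without control library 1 or 3 or any IL-4 library (0.66 to 0.79). Ppp1r15a (0.08), Ern1 (0.02) and Xbp1 (0.22) did not pass.

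IL-13 raised 6 of the 8 members tested, where 5.61% of all genes were higher, with a median of 0.82. Asns, Atf5 and Atf4 read 57.8 to 68.4, 66.4 to 120 and 293 to 319 CPM, rises of 1.52 ± 0.17, 1.41 ± 0.17 and 0.90 ± 0.09 (edgeR's adjusted p = 2.11e-10, 6.38e-09 and 3.36e-11). Trib3 read 11.6, 11.4 and 13.5 CPM and was higher by 1.37 ± 0.34 (edgeR's adjusted p = 0.00265), a call lost in DESeq2 and without control library 3 (1.07) or the third IL-13 library (1.29). Ddit3 read 26.3, 39.9 and 25.3 CPM and was higher by 0.75 ± 0.21 (edgeR's adjusted p = 0.00772), lost in DESeq2, in a fit of these 2 groups alone, and without control library 1 or 3, IL-4 library 1 or 3, or IL-13 library 2 (0.50 to 0.75). Xbp1 read 207, 228 and 207 CPM and was higher by 0.40 ± 0.10 (edgeR's adjusted p = 0.00207), lost without control library 3 or IL-13 library 2, each time at 0.35. Ern1 (0.02) and Ppp1r15a (0.02) did not pass. Without control library 3, 3 of the 6 calls were left. IL-4 and IL-13 were compared with the same controls.

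Between IL-13 and IL-4 directly, none of the 8 members tested passed, where 0.0865% of all genes were higher and 0.0216% lower. None had an unadjusted p under 0.05 in edgeR's quasi-likelihood test, and DESeq2 also called 0. Among the 8, the largest difference was −0.23 ± 0.27 for Trib3, followed by 0.19 ± 0.15 for Atf5 and 0.19 ± 0.14 for Asns (edgeR's adjusted p = 0.926, 0.872 and 0.859). The other differences were 0.18 for Xbp1, 0.10 for Atf4, −0.05 for Ppp1r15a, −0.01 for Ddit3 and −0.002 for Ern1. Chac1 and Sesn2 were not tested. Sesn2 read 4.48 to 4.88 CPM with IL-4 and 1.93 to 2.28 CPM with IL-13, on 3 to 8 counts per library. Chac1 overlapped, at 3.48 to 5.12 and 3.38 to 5.78 CPM.

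At the same labelled time of 12 h, IFN-γ and LPS was compared with each of the 2 cytokines. The compared groups lay on opposite sides of the library split, so the condition and the split cannot be told apart here. Atf5 and Trib3 are among the genes described with that split. Against IL-4, 2 of the 8 members tested were higher (22.1% of all genes were) and 2 were lower (20.6% were). Against IL-13, 1 was higher (21.9%) and 2 were lower (20.3%). Atf5, at 28.6, 24.6 and 21.7 CPM with IFN-γ and LPS, lay below every IL-4 and IL-13 library, with differences of −1.23 ± 0.19 and −1.43 ± 0.19 (edgeR's adjusted p = 3.22e-06 and 1.66e-07). Trib3 did as well, with −1.51 ± 0.33 and −1.28 ± 0.33 (edgeR's adjusted p = 0.000177 and 0.00148), the second lost in DESeq2 and without the third 12 h library (−1.13). Ppp1r15a was higher by 0.85 ± 0.19 and 0.90 ± 0.18, and Xbp1 was higher than with IL-4 by 0.41 ± 0.10 (edgeR's adjusted p = 0.000192, 9.40e-05 and 0.00110). Their plain CPM overlapped in all 3 of these, and none of the 3 passed without TMM (0.50, 0.52 and 0.06), where Asns was instead lower than with IL-13 (−0.51). The Xbp1 call was also lost without the first IL-4 library (0.38). Against IL-4, Atf4 (0.27), Ern1 (0.13), Ddit3 (0.11) and Asns (0.07) did not pass, and against IL-13 neither did Xbp1 (0.23), Atf4 (0.17), Ern1 (0.13), Ddit3 (0.12) and Asns (−0.12). Atf4 did pass against IL-4 without the first 12 h library of IFN-γ and LPS (0.38).

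In untreated cells, RAW264.7 had more of 3 members than BMDMs and less of 3, where 32.9% of all genes were higher and 34.7% lower. Asns stood at 185 and 196 CPM against 19.2 to 25.6 CPM in BMDMs, a 7.14-fold difference (2.84 ± 0.14, edgeR's adjusted p = 3.16e-42). Xbp1 read 372 and 389 CPM and Atf4 366 and 367 CPM, higher by 0.99 ± 0.10 and 0.91 ± 0.10 (edgeR's adjusted p = 1.46e-17 and 1.13e-15). Lower were Ern1 at 9.64 and 6.55 CPM (−1.69 ± 0.28), Ddit3 at 8.26 and 7.96 CPM (−1.40 ± 0.29) and Ppp1r15a at 13.8 and 16.4 CPM (−1.29 ± 0.23), with edgeR's adjusted p of 4.66e-08, 9.48e-06 and 1.36e-07. None of these 6 groups overlapped. Ddit3 had 31 antisense against 35 sense counts in the RAW264.7 controls and 20 against 26 with LPS, so its level in this line rests on few sense counts. Sesn2 (−1.20), Trib3 (0.38), Atf5 (−0.23) and Chac1 (−0.04) did not pass, although Sesn2 did without BMDM control library 2 (−1.60). Ern1, on 21 and 14 counts in the RAW264.7 controls, and Xbp1, whose mRNA the sensor splices, thus differed in opposite directions. The counts of 3 higher and 3 lower are near the shares over all genes.

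LPS for 4 h raised 5 of the 9 members tested in RAW264.7, where 15.1% of all genes were higher. The median log2 change was 0.50. Asns went from 185 and 196 to 250 and 246 CPM (0.56 ± 0.09) and Atf4 from 366 and 367 to 443 and 471 CPM (0.50 ± 0.08), with edgeR's adjusted p of 7.80e-09 and 1.66e-09. Ppp1r15a went from 13.8 and 16.4 to 26.5 and 24.2 CPM (0.93 ± 0.24, edgeR's adjusted p = 0.000532). Chac1 went from 2.75 and 3.28 to 8.83 and 5.43 CPM (1.39 ± 0.46) and Atf5 from 32.6 and 33.7 to 45.1 and 40.1 CPM (0.54 ± 0.17), with edgeR's adjusted p of 0.00942 and 0.00734. These 5 groups did not overlap their controls, but the calls for Chac1 and Atf5 were lost on leaving out any 1 of the 4 libraries and in DESeq2, without TMM and with unstranded counts. That for Ppp1r15a was lost without control library 1 or LPS library 1 (0.79 and 0.85) and in DESeq2. Ddit3 (−0.32), Ern1 (−0.27), Trib3 (−0.20) and Xbp1 (0.03) did not pass, and Sesn2, at 0.929 to 2.75 CPM, was not tested.

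The difference between the 4 h responses of the 2 cell types was tested in 1 fit of both. BMDMs had received IFN-γ besides LPS, and RAW264.7 LPS alone, so cell type and treatment cannot be told apart. The response was smaller in RAW264.7 for 6 of the 10 genes and larger for none, where 16.4% of all genes were lower in this sense. The 6 were Trib3 (−3.33 ± 0.53), Chac1 (−3.06 ± 0.69), Asns (−2.69 ± 0.18), Ppp1r15a (−1.98 ± 0.30), Atf4 (−1.60 ± 0.14) and Xbp1 (−0.89 ± 0.14). The median over the members was −1.79, against 0.03 over all genes. The same 6 counted as smaller without TMM, where the median of all genes moved to 0.47. Sesn2 was at −2.31 ± 0.80 without passing (edgeR's adjusted p = 0.0158), and Ddit3 (−1.04), Atf5 (−0.49) and Ern1 (0.22) did not pass either. Sesn2 did pass without BMDM control library 3, the second 4 h BMDM library or the second RAW264.7 LPS library (−2.55, −2.55 and −3.16).

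**Figure D4:**
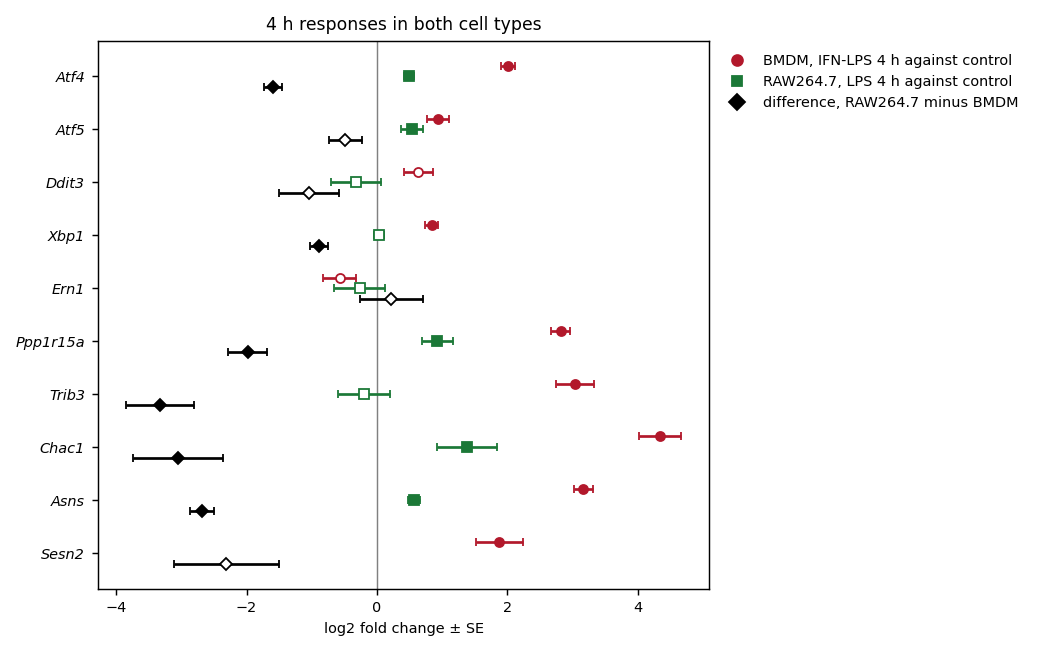
Log2 fold change ± SE at 4 h of each gene with IFN-γ and LPS in BMDMs (circles) and with LPS in RAW264.7 (squares). Diamonds give the difference of these responses, RAW264.7 minus BMDMs. Filled points passed the test and open points did not. Chac1 changed by 4.35 in BMDMs and by 1.39 in RAW264.7, and Trib3 by 3.04 and −0.20.

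The rest of the pathway was read from lists of genes that hold none of the 10. Their median log2 changes at 4 h of IFN-γ and LPS were 1.34 for amino acid supply, 0.84 for ER chaperones and ERAD, 0.79 for tRNA synthetases, 0.78 for other targets of ATF4 or CHOP, −0.08 for other UPR sensors and −0.30 for the eIF2 kinases, against −0.08 over all genes. The list counts that follow stand beside 14.7, 26, 23.9 and 23.9% of all genes higher at 1, 4, 12 and 24 h and 11.3, 25.6, 23.4 and 21.3% lower, beside 4.38% higher and 3.25% lower with IL-4, 5.61% and 4.49% with IL-13, and 15.1% and 12.8% with LPS in RAW264.7. Of 13 tested genes of amino acid synthesis and transport known as ATF4 targets, 9, 10, 7 and 6 rose at 1, 4, 12 and 24 h of IFN-γ and LPS and 0, 1, 2 and 2 fell. Slc7a11, the cystine importer, was higher by 5.75 ± 0.14 at 4 h and 4.45 ± 0.13 at 24 h. Mthfd2, of mitochondrial folate metabolism, was higher by 3.21 ± 0.14 at 4 h, and Phgdh, the first enzyme of serine synthesis, by 2.64 ± 0.17 at 24 h. With IL-4 2 of 11 rose, Mthfd2 (1.24 ± 0.15) and Phgdh (1.14 ± 0.20), and with IL-13 3 of 11, with Slc7a11 at 0.61 ± 0.16 beside Mthfd2 (1.35) and Phgdh (1.31). In RAW264.7 with LPS, 5 of 14 rose and 2 fell, and Slc7a11 changed by 4.14 ± 0.11. Without TMM these became 7, 8, 6 and 6 higher along the time course, and 3 higher and 3 lower in RAW264.7.

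The cytosolic aminoacyl-tRNA synthetases, which charge tRNAs, gave 4, 13, 5 and 14 higher of 20 at 1, 4, 12 and 24 h, with 2 lower at 4 h. Without TMM the counts were 3, 5, 3 and 11 higher and 0, 4, 2 and 1 lower, so the count at 4 h depended on the scaling. The counts of 4 at 1 h and 5 at 12 h are near the shares over all genes, 14.7 and 23.9%. Wars was higher by 2.62 ± 0.16 and Rars by 2.34 ± 0.15 at 4 h. With IL-4 and with IL-13 4 of 20 rose, among them Rars (0.81 and 1.17), Yars (0.93 and 1.08) and Cars (0.65 and 0.96). LPS in RAW264.7 raised 4, near the 15.1% over all genes, or 2 with 1 lower without TMM, with Farsa the highest (0.59 ± 0.13).

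Of 21 tested ER chaperone and ERAD genes, targets of XBP1 or ATF6, 17, 15, 13 and 15 rose at 1, 4, 12 and 24 h and 0, 0, 1 and 1 fell. Without TMM 14, 8, 8 and 13 rose and 0, 2, 3 and 3 fell. Hspa5, the chaperone BiP, was higher by 2.20 ± 0.10 at 1 h and 2.29 ± 0.10 at 4 h, and Herpud1, of ERAD, by 2.41 ± 0.17 and 2.19 ± 0.18. With IL-4 and with IL-13 1 of 21 rose, near the 4.38 and 5.61% over all genes. It was the disulfide isomerase Pdia4 (0.79 ± 0.11 and 1.09 ± 0.11). In RAW264.7 with LPS 7 rose and 1 fell, or 4 and 2 without TMM, and Herpud1 was higher by 1.58 ± 0.08.

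Of the eIF2 kinases and regulators of its dephosphorylation, 3 of 7 rose and 3 fell at 4 h, or 2 and 4 without TMM, beside 26% higher and 25.6% lower over all genes. Eif2ak2, which encodes the interferon-induced kinase PKR, was higher by 4.20 ± 0.17, Ppp1r15b, a constitutive paralogue of Ppp1r15a that also brings the phosphatase to eIF2α, by 2.42 ± 0.10, and Impact, an inhibitor of GCN2, changed by −2.57 ± 0.22. Eif2ak3, which encodes PERK, was lower at 12 h (−1.0 ± 0.21) and 24 h (−0.88 ± 0.19). At 1, 12 and 24 h the counts were 1, 3 and 3 higher and 1, 1 and 1 lower, with 3 lower at 12 h and at 24 h without TMM. With IL-4 none of the 7 passed and with IL-13 1 did, Eif2s1 (0.49 ± 0.12). In RAW264.7 3 rose with TMM and none passed without it.

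Among the other UPR sensors and processing genes, 0, 1, 1 and 1 of 5 rose and 0, 1, 2 and 3 fell along the time course, with 0 rising and 3 falling at 4 h without TMM. A count of 1 among 5 is near the shares over all genes. Atf6, an ER membrane-bound factor, changed by −0.57 ± 0.10 at 4 h and −0.97 ± 0.10 at 24 h, while its relative Atf6b was higher by 1.40 ± 0.10 at 24 h. None of 6 passed with IL-4 or IL-13. In RAW264.7, Creb3 was higher (0.89 ± 0.19) and Atf6 lower (−0.52 ± 0.10). Other targets of ATF4 or CHOP gave 7, 6, 5 and 7 higher of 12 and 0, 2, 3 and 3 lower, or 6, 3, 4 and 4 higher and 1, 3, 5 and 3 lower without TMM. Nupr1, a stress-induced chromatin protein, was higher by 5.17 ± 0.26 at 4 h, and Jdp2, a bZIP factor, by 3.69 ± 0.23. With IL-4 and IL-13 Atf3 was the 1 gene of 10 to rise (0.49 ± 0.09 and 0.59 ± 0.09). In RAW264.7 5 of 12 rose and 1 fell, with Jdp2 at 3.11 ± 0.12.

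**Figure D5:**
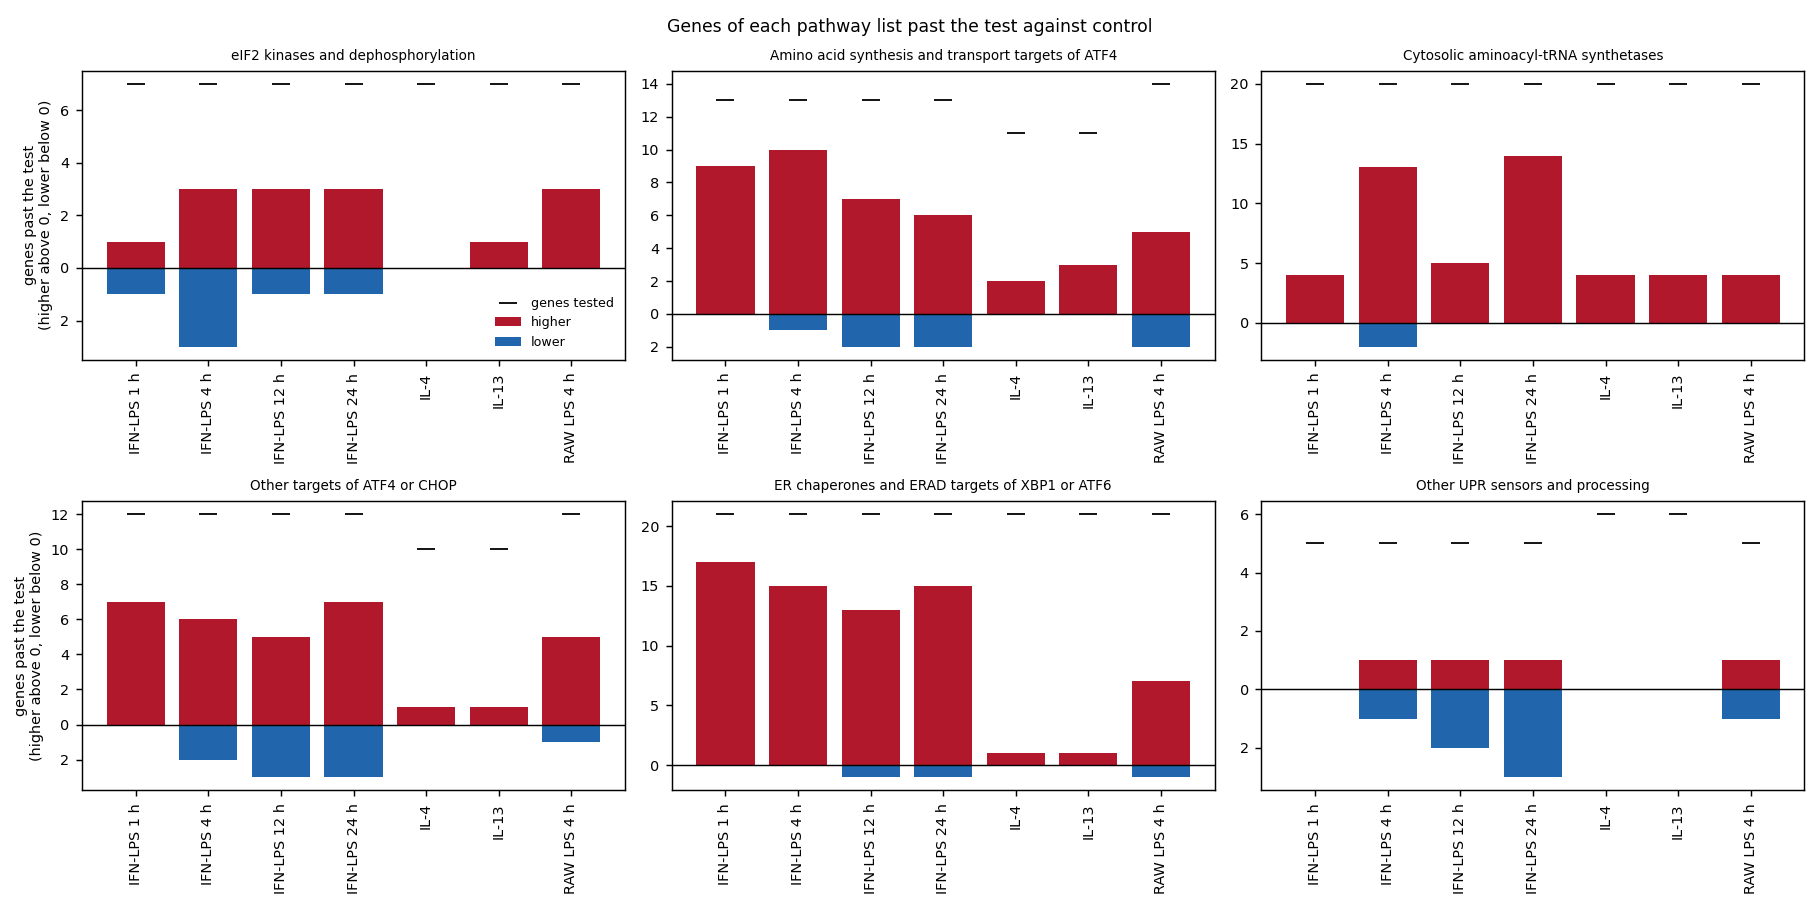
Number of genes of each pathway list past the test against control in each treatment, with higher genes above 0 and lower genes below 0. ER chaperone and ERAD genes have 17 higher at 1 h of IFN-γ and LPS and 1 higher with IL-4 and with IL-13, while 4 tRNA synthetases are higher with each cytokine.

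The genes whose mean log2(CPM + 1) over the 9 conditions ran most like each member were ranked by Pearson r among 9462 genes with a mean of at least 5 CPM. The points share the controls, the library split and, for RAW264.7, the cell line, so r is a description. Atf4 was most like Txndc9 (0.94), Asns (0.93) and Mthfd2 (0.91), and Asns like Higd1a (0.97), Slc7a1 (0.96) and Txndc9 (0.95). Xbp1 was most like the ER chaperone genes Hsp90b1 (0.97) and Manf (0.96) and like Uqcrfs1 (0.96), with 135 genes above 0.9. Ppp1r15a was most like Zfp263 (0.97), Rabgef1 (0.95) and Btg2 (0.95). Ddit3 came with Unk (0.96), Dlg4 (0.96) and Ahr (0.93), and Chac1 with Klf8, Stat5a and Tbc1d1 (0.93 each). Atf5 and Trib3 had no gene above 0.9, with Lrrc28 (0.86) and Rcbtb1 (0.83) the nearest. Sesn2 was most like Trmt1l (0.94). For Ern1, 322 genes exceeded 0.9, led by Spsb2 (0.99), so the nearest names carry little. The 135 genes above 0.9 limit the names for Xbp1 in the same way.

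Positions are on mm10 from GENCODE M21 gene models. Atf4 is at chr15:80255184-80257541, Ddit3 at chr10:127290774-127296288, Asns at chr6:7675169-7693254 and Sesn2 at chr4:132492032-132510501. Atf5 (chr7:44812256-44816658) and Ppp1r15a (chr7:45522916-45526268) share chromosome 7, Trib3 (chr2:152337422-152344032) and Chac1 (chr2:119351229-119354381) chromosome 2, and Xbp1 (chr11:5520659-5525893) and Ern1 (chr11:106394650-106487852) chromosome 11. Atf5 overlaps Nup62 and Il4i1 and Ppp1r15a overlaps Tulp2 on the other strand, with 86 antisense against 2242 sense counts for Atf5 and 34 against 8267 for Ppp1r15a.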

How the data were processed

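The authors demultiplexed the reads with CASAVA 1.8.2, trimmed them with Trimmomatic 0.33, aligned them to mm10 with STAR 2.5.1 and deposited raw counts of reads on each gene, 1 file a sample, unstranded and for each strand. The libraries were rRNA-depleted and directional, and the labels name the molecule polyA RNA. The sense-strand counts were used as deposited, without Rn45s and the rows that name no gene. Genes were kept by filterByExpr and fitted in edgeR 4.0.16 (R 4.3.3) with TMM scaling and robust quasi-likelihood tests, with 1 mean per group. Separate fits were made of the time course, of control with IL-4 and IL-13, of the 12 h groups, of RAW264.7, and of both cell types at 4 h. P-values were adjusted by Benjamini-Hochberg within a contrast, with a threshold of 0.01. SE was taken as the size of the log2 change divided by the root of the F statistic. CPM are plain CPM without TMM.

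Alternatives used DESeq2 1.42.0, no TMM, other filters, unstranded counts, a fold threshold, replicate blocks and left-out libraries. Tables and plots used Python 3.11.15, pandas 2.3.3 and matplotlib 3.10.9, and the tests were checked on simulated counts. The members and the gene lists were chosen with earlier results of these data known. Every member tested is named in its comparison. Of each pathway list at most the 3 genes of largest absolute log2 fold change are named, among those that passed with groups that did not overlap. Replicates differed by 1.33 to 4.93 times counting noise (chi-square per degree of freedom, 23 pairs), so none was counted as a repeat. One gene list and 1 marker gene are not reported here. SE cover no error beyond these libraries.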

Additional observations from a re-analysis of the deposited data

Results flagged for a closer look

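For 6 of the 10 genes, the change at 4 h differed between RAW264.7 given LPS and BMDMs given IFN-γ and LPS by a test of the difference itself (edgeR's quasi-likelihood F test, adjusted by Benjamini-Hochberg). As RAW264.7 minus BMDMs on the log2 scale, the differences were −3.33 for Trib3, −3.06 for Chac1, −2.69 for Asns, −1.98 for Ppp1r15a, −1.60 for Atf4 and −0.89 for Xbp1, with adjusted p of 3.15e-08, 0.000110, 7.09e-29, 8.17e-09, 1.21e-21 and 2.84e-08. In each of the 6, every treated BMDM library lay above every control BMDM library. The treatments were not the same in the 2 cell types, and the share of IFN-γ in the differences was not tested.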

How the results depend on the processing

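Counts of members past the test kept within 1.5 times under most alternatives, and no call changed sign. With a minimum log2 change of 1 added, the counts were 2 at 1 h, 2 at 12 h, 2 from 12 h to 24 h, 3 with IL-4, 3 with IL-13, 2 for 12 h against IL-4 and 1 with LPS in RAW264.7. With at least 10 counts asked in every sample, which left 7 members to test, they were 5 at 4 h, 5 from 1 h to 4 h, 4 from 4 h to 12 h and 3 with IL-4. Without TMM they were 3 at 12 h, 2 for 12 h against IL-4 and 3 in RAW264.7, and in RAW264.7 they were 2 with DESeq2 and 3 with unstranded counts. Leaving out 1 library gave 3 to 6 with IL-13 (3 without control library 3) and 2 to 3 in RAW264.7 (2 without the first control or LPS library and 3 without the second of either). Over the single genes, 2759 values kept their side of the threshold, 59 lost a call and 19 gained one.

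The replicate numbers gave no clear pairing of the libraries. Deviations of same-numbered libraries in the time course correlated at 0.0215 on average (−0.0704 to 0.176), and 8 of 15 libraries correlated best with their own number. The same held for 4 of 9 libraries with IL-4 and IL-13, 1 of 9 at 12 h and 0 of 4 in RAW264.7. It held for 10 of 10 in the fit of both cell types, where r was 0.00407 to 0.0517, a hint from the data and below the 0.1 asked for pairing. The 2 libraries of a RAW264.7 group deviate as mirror images, so all 4 agree or disagree together and cannot decide pairing. With the replicate number as a block, 1 call was lost, Chac1 in RAW264.7 with LPS (1.40), which made 4 members past the test there.

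At 1502618 to 2532496 counts per library, Chac1 and Sesn2 could not be tested with IL-4 and IL-13, nor Sesn2 in RAW264.7. On TMM-scaled CPM the levels were 0.764 to 1.36 times the printed ones.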

Other observations

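Sesn1, a relative of Sesn2 that was chosen after its values were seen, changed by −2.25 ± 0.24, −4.59 ± 0.38, −3.92 ± 0.31 and −2.13 ± 0.22 (SE from edgeR, log2 scale) at 1, 4, 12 and 24 h of IFN-γ and LPS, and each of these passed the test. Sesn2 was higher at 4 h by 1.88 ± 0.37 and did not pass at the other times. With IL-13 Sesn1 was lower (−0.73 ± 0.18), and in RAW264.7 with LPS it changed by −2.22 ± 0.49, both past the test.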
